A study of Mus musculus with 10 samples.

Results

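The difference in gene expression between 24 h and 4 h after an inflammatory challenge was followed in mouse urinary bladders. All 5030 of 5030 probes of the array were taken, without regard to their values, and were compared within 4 pairs of arrays that match in genotype and stimulus and differ in time. The 8 challenged arrays of the series' 10 were used, and the saline arrays, which were made at 24 h alone, were not. Each array carried the labelled cDNA of 1 pool of 8 bladders, so 1 condition is 1 array and the 4 pairs stand in for replicates of the time difference. Their spread therefore holds real differences between genotypes and stimuli beside the error of the arrays.
At 24 h the arrays were from female PAR1-/- mice instilled with LPS at 100 μg/ml, PAR1-/- mice instilled with SP, WT (C57BL/6J) mice instilled with LPS at 100 μg/ml and WT mice instilled with SP. At 4 h the same 4 combinations were hybridised. For SP the labels give 20 μM for PAR1-/- mice and 10 μM for WT mice, whereas the methods give 10 μM for both, so the genotype pairs of SP may also differ in dose. PAR1-/- mice carry a disrupted F2r gene in all tissues. Ages are not given in the sources used here. Whole bladders were homogenised, and in such pools fewer cells of a type and less RNA per cell cannot be told apart.
LPS, a glycolipid from the outer wall of bacteria such as E. coli, is sensed through the receptor Tlr4 and sets off NF-kB and cytokine transcription. SP (substance P) is a neuropeptide of sensory nerves that acts on the receptor Tacr1 and causes plasma leakage and mast cell activation in the bladder. PAR1 is the G protein-coupled receptor that thrombin opens by cleavage. In acute cystitis, immediate early transcription factors and cytokines are typically transcribed within hours, and repair genes follow later.
Spot intensities, in the scanner's arbitrary units, were recovered from the deposited standard scores for 4968 probes. A probe was above background when it lay over 3 SD above the most common background level of its array. The total intensity of an array at 24 h was 151105 and 160026 after LPS and SP in PAR1-/- bladders, and 113841 and 73649 in WT ones, against totals at 4 h of 149803 and 274679 in PAR1-/- bladders and 159583 and 238612 in WT ones. A single value, 15, fills 4324 probes (87.04%) of the array labelled WT LPS at 24 h. The next value present is 29, so 632 probes were above background on it, against 1832 to 2390 on the other 7 arrays. The array of SP at 24 h in WT bladders had a median intensity of 10, the same as both saline arrays. Results that rest on these WT arrays at 24 h are given with that limit. Where 2 probes carry the same gene name (33 pairs), their values correlated with a median r of 0.0576, against 0.283 between all pairs of probes. Among the probes tested below 3 such pairs had a median r of -0.102, against 0.254. Gene names below are the annotation's names for single probes. Probes that share a name thus correlated no better than all pairs did. This check did not bear out that values stand beside their own probe names in the deposited table. Names attached to the wrong values were not tested for in another way, so each gene-level value holds only as far as those names do.

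**Figure D1:**
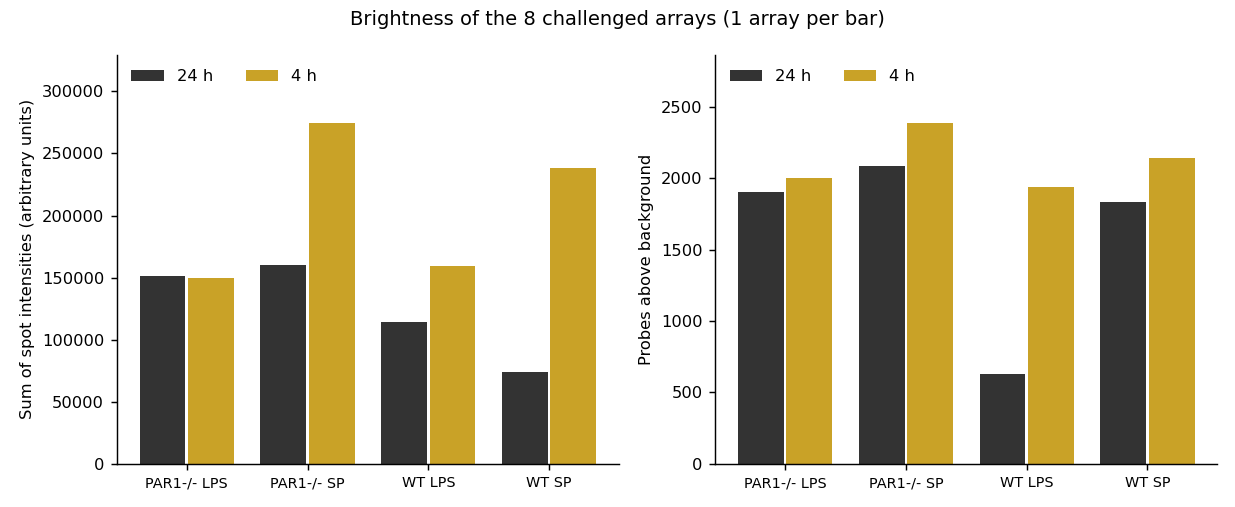
Sum of spot intensities (left, arbitrary units) and number of probes above background (right) on each of the 8 arrays, with the 24 h array of each pair left of its 4 h array. The 24 h arrays were dimmer in 3 of the 4 pairs, and the WT LPS array at 24 h had 632 probes above background.

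The tissue label was set against defining markers. Acta2, the actin of smooth muscle, was above background on all 8 arrays and so was Cdh1, the cadherin of epithelia. Other markers of these tissues were not. Myh11 and Tagln, of smooth muscle, were above it on 2 and 3 arrays at 24 h and on 4 and 2 at 4 h. Krt19, of urothelium, was above it on 3 arrays at 24 h and 4 at 4 h. Upk2, a plaque protein of umbrella cells, had intensities of 20, 18, 15 and 9 at 24 h (in the order PAR1-/- LPS, PAR1-/- SP, WT LPS, WT SP, used for all values below), against 32, 31, 17 and 33 at 4 h. The stroma genes Col1a2, Dcn and Fn1 were above background on 0 of the 8 arrays. So were the neutrophil gene S100a8, the T cell gene Cd3e, the macrophage genes Cd14 and Cd68 and the mast cell protease gene Cma1. Other members of these lists were detected. Vim, of the fibroblast list, was above background on 4 arrays at 24 h and 4 at 4 h. The macrophage genes Csf1r and Itgb2 were above it on 3 and 2 arrays at 24 h and on 4 and 3 at 4 h. Markers never above background were 1 of 6 for smooth muscle, 0 of 4 for urothelium and 3 of 5 for fibroblasts and matrix. They were 2 of 4 for macrophages, 2 of 7 for neutrophils and 2 of 5 for mast cells. Of the markers of T and B cells, endothelium, nerve and neutrophils, 0 reached the filter of the test. The carboxypeptidase of mast cells, Cpa3, was bright on all 8 arrays, with 502, 481, 280 and 124 at 24 h, against 425, 700, 354 and 671 at 4 h. The F2r probe had intensities of 18, 21, 15 and 11 at 24 h, against 17, 51, 195 and 22 at 4 h. It was thus above background on both arrays labelled PAR1-/- SP and on the array labelled WT LPS at 4 h, and it gives no check of the genotype labels, since its place relative to the disruption is not given in the sources used.

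After scaling by regression, values under a common floor of 23.28 were raised to it, and the 1491 probes above that floor on at least 4 of the 8 arrays (30% of those recovered) were tested with limma. The question is which transcripts differ between the later and the early stage of the response, whatever the stimulus and genotype. No probe passed a Benjamini-Hochberg adjusted p of 0.05 over the 4 pairs: 0 were higher and 0 lower at 24 h, a share of 0% of the 1491 tested in each direction. At an unadjusted p under 0.05 there were 16 probes higher (1.07%) and 72 lower (4.83%), 5.9% in all. The smallest adjusted p was 0.216. An exact sign-flip test over 4 pairs cannot go below 0.125. The median log2 difference over the probes tested was -0.09, with pair medians of 0.03 after LPS and 0.06 after SP in PAR1-/- bladders and -0.38 and -0.01 in WT bladders. Before scaling the pair medians were 0 and -0.84 in PAR1-/- bladders and -0.79 and -1.77 in WT bladders.
A difference of the same sign in all 4 pairs was found for 43 probes that were higher at 24 h (2.88%) and 114 that were lower (7.65%). This order turned over all 4968 probes with no filter and no floor, where 331 were higher and 158 lower and the median was 0.12. Among the 535 probes above the floor on all 8 arrays, 39 were higher and 33 lower, and the median was 0.01. For 8 probes the 4 arrays of 24 h all lay above the 4 arrays of 4 h (0.537%), and for 41 they all lay below (2.75%). The genes named next are the 8 in each direction with the smallest p among those of 1 sign in all pairs. None of them passed the adjusted p, and apart from Abcb10 their adjusted p was 0.741 throughout (limma).
The smallest p belonged to Abcb10, an ATP-binding cassette transporter of the inner mitochondrial membrane. Its intensities were 25, 58, 32 and 18 at 24 h, against 117, 305, 204 and 528 at 4 h. All 4 arrays of 24 h were below all 4 arrays of 4 h, and the saline arrays read 37 in PAR1-/- bladders and 20 in WT bladders. The mean log2 difference was -2.25 ± 0.32 (SE, 4 pairs; 95% interval -3.00 to -1.50), a level 4.75-fold lower at 24 h, with an adjusted p of 0.216. The pairs gave -1.98 and -1.30 in PAR1-/- bladders and -2.80 and -2.91 in WT bladders. The adjusted p passed 0.05 under 6 alternative settings, at between 4.32e-05 and 0.0426, and under the others it did not.
Sec61a1, the pore subunit of the channel through which proteins enter the endoplasmic reticulum, was above background at 4 h alone. Its intensities were 7, 7, 9 and 6 at 24 h, against 63, 200, 39 and 65 at 4 h. All 4 values at 24 h lay under the background of their arrays, as did both saline values of 6, and all 4 at 4 h lay above it. Each value at 24 h and on saline was the lowest on its array, and the 9 lies under the 15 that fills the WT LPS array. Whether such lowest values are readings of the spot was not tested. The probe passed the filter of the test through its 4 h arrays alone. Taken as readings, the values put the level at least 2.45-fold lower at 24 h, computed against the lowest signal above background on each array. On the fitted scale with the floor the difference was -1.31 ± 0.28 (SE).
Olfr16, an odorant receptor gene, had 41, 32, 15 and 16 at 24 h, against 117, 115, 88 and 128 at 4 h. The times did not overlap, and the log2 difference was -1.40 ± 0.28. Lpar2, a receptor of lysophosphatidic acid, had 7, 35, 32 and 13 at 24 h, against 35, 117, 97 and 139 at 4 h. After scaling its times did not overlap either, with a difference of -1.21 ± 0.29. The 7 was the lowest value on its array.
Dvl3, a Dishevelled protein that carries the WNT signal inside the cell, had 29, 27, 15 and 10 at 24 h, against 80, 68, 54 and 96 at 4 h, a log2 difference of -1.11 ± 0.27. The study counts Dvl3 among its PAR1-dependent genes, a list chosen on these arrays. Fgd1, an exchange factor of the small GTPase Cdc42, and Capg, which caps actin filaments, both act on the actin cytoskeleton and differed by -0.99 ± 0.26 and -0.98 ± 0.27, with overlap of single arrays between the times. Zp2, a glycoprotein of the egg coat, had 65, 67, 40 and 33 at 24 h, against 95, 367, 111 and 224 at 4 h, a difference of -0.99 ± 0.27.

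**Figure D2:**
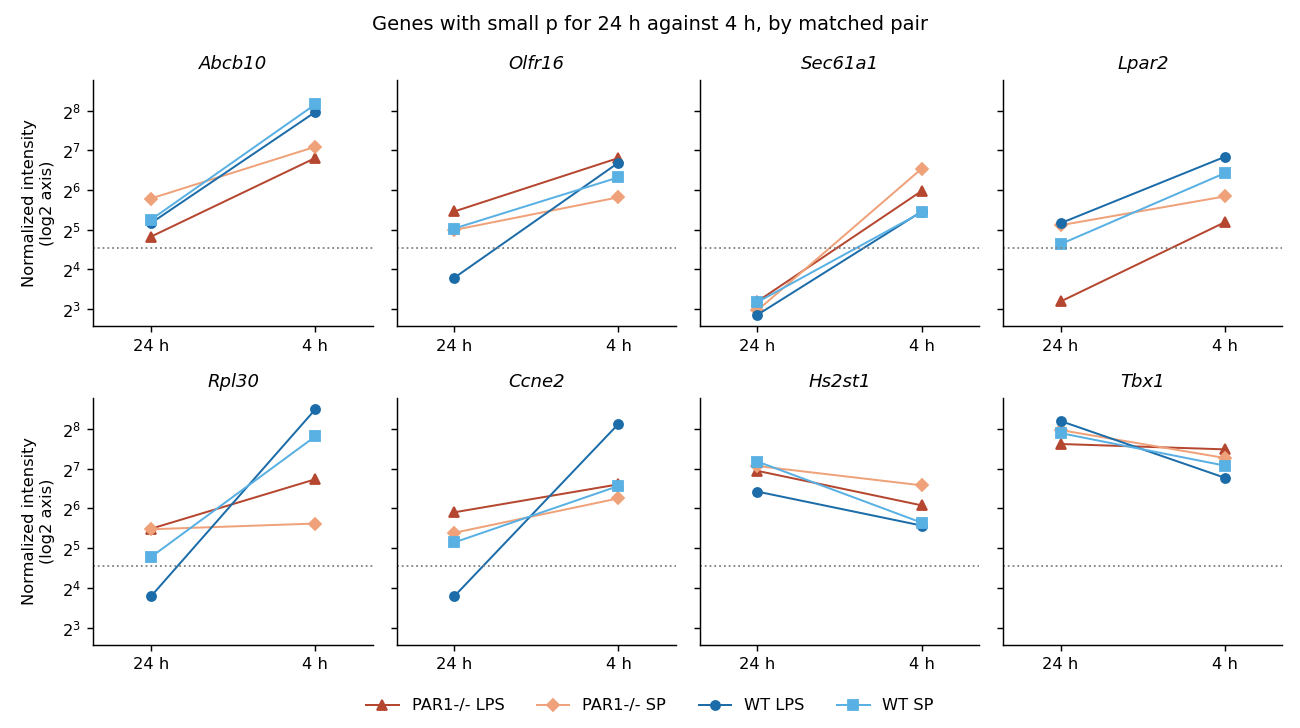
Normalised intensity (log2 axis) at 24 h (left) and 4 h (right) of 8 genes, with 1 line per pair of arrays and the common floor of 23.28 as a dotted line. Abcb10, Olfr16, Sec61a1, Lpar2, Rpl30 and Ccne2 were lower at 24 h in all 4 pairs, Hs2st1 and Tbx1 were higher, and none passed the adjusted p.

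The genes that were higher at 24 h differed less. Hs2st1, which adds sulfate to heparan sulfate, had normalised intensities of 123, 134, 85.8 and 145 at 24 h, against 67.5, 95.7, 47.4 and 49.9 at 4 h. Its log2 difference was 0.94 ± 0.26 (SE, 4 pairs). Tnni2, a troponin of fast skeletal muscle, differed by 0.93 ± 0.31 and Dapk3, a kinase that phosphorylates myosin light chain, by 0.70 ± 0.25.
For Tbx1, Snai1, Skp2 and Ubl3 all 4 arrays of 24 h lay above all 4 of 4 h after scaling. Tbx1, a T-box transcription factor, read 197, 251, 294 and 238 at 24 h, against 179, 154, 109 and 135 at 4 h (normalised intensities), a log2 difference of 0.77 ± 0.28. Snai1, a repressor of epithelial cadherin genes, differed by 0.62 ± 0.25, Skp2, which targets cell cycle inhibitors for degradation, by 0.61 ± 0.25, and the ubiquitin-like Ubl3 by 0.66 ± 0.27. Foxd1, a forkhead factor, differed by 0.61 ± 0.25 with overlap of the times. These directions are relative to the scaled arrays: without normalization the median of the probes tested was -0.62. Of 70 genes named in the report 64 were then below 0, among them 17 that were higher after scaling.
Detection was counted as well. Of the 4968 probes, 13 were above background on all 4 arrays of 4 h and on 0 of 24 h (0.262%), and 0 showed the opposite pattern (0%). For 10 of the 13 the saline arrays were at background too. Sec61a1 is among them, as are Gabrr1, a GABA receptor subunit, Bmp4, a bone morphogenetic protein, Hmox1, the inducible haem oxygenase, and Lox, which crosslinks collagen (these 4 were chosen after their values were seen). Gabrr1 had 18, 16, 15 and 11 at 24 h, against 35, 58, 35 and 106 at 4 h, at least 1.75-fold lower. For the other 11 the lower bound of the fold was between 1.025 and 1.314. Of the 13, 12 hold the value 15 on the WT LPS array at 24 h, where 632 probes can count as detected at all, so that array favours this pattern over its opposite. Without the WT LPS pair the counts were 20 (0.403%) and 2 (0.0403%). The 4 h arrays were also the brighter ones in 3 of the 4 pairs, and the part of that in these counts was not tested.

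The promoters of the genes on which these results turn are given for reference, as the 250 bases before and 50 after a start site (RefSeq, GRCm38.p6, printed in gene orientation). Of the 16 genes named above, 13 matched the promoter table, with 17 promoters. Capitals mark the letters of 6 motifs on either strand. Of the 32851 promoters of the table, 1.79% hold a CRE with the letters TGACGTCA. The AP-1 site was searched as TGACTCA and is in 5.2% of them. The E-box was searched as CACGTG and is in 7.15%. For the TATA box the letters were TATAAA, with a share of 13.6%. The CCAAT box was searched by the letters of its name and is in 37.4%, and the GC box as GGGCGG, in 35.7%. The CRE and AP-1 letters bind factors of the immediate early response. Abcb10 is shown as the gene with the smallest p, and Ccn1 as the immediate early gene whose time difference differed between genotypes. Lpar2 is shown as the one with an AP-1 motif among those of the 8 lower genes that matched a promoter.
Abcb10, chr8:123983073-123983372, minus strand: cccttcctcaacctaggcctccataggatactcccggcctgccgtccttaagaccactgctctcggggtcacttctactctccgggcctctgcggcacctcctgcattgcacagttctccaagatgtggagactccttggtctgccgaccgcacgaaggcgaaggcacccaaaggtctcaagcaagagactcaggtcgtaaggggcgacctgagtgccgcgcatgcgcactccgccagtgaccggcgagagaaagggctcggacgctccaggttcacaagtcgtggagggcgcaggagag
Lpar2, chr8:69822315-69822614, plus strand: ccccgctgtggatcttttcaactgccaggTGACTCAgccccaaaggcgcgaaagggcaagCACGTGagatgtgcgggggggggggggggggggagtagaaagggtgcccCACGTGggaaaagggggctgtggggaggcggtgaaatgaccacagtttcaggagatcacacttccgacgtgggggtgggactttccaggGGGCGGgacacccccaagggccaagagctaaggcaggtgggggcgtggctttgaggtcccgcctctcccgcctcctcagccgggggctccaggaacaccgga
Ccn1, chr3:145649936-145650235, minus strand: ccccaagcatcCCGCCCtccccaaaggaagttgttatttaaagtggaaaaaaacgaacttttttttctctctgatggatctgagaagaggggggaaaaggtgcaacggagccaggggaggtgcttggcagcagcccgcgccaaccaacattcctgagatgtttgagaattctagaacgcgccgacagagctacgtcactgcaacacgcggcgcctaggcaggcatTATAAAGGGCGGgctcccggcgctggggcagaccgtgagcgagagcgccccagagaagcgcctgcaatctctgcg
The Abcb10 window holds none of the 6 motifs. The Lpar2 window holds 1 AP-1 site and E-boxes at -190 and -141 from the start site. In Ccn1 the TATA box at -25 runs into a GC box at -19. Over the 17 promoters, 1 held a CRE (Dapk3), 1 an AP-1 site and 10 a GC box. A match is a description of letters, not a measured site.

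The pairs were then set beside each other, since pairs share no array. In PAR1-/- bladders the time difference after LPS and that after SP had a Pearson r of 0.00584 over the 1491 probes (Spearman 0.017), and in WT bladders 0.502 (Spearman 0.484). Between genotypes r was between -0.13 and 0.0137. These correlations are across probes, which are not independent replicates, and the arrays share their scaling. The time difference was over 2-fold lower in both PAR1-/- pairs for 2 probes (0.134%) and in both WT pairs for 117 (7.85%). It was over 2-fold higher in both PAR1-/- pairs for 3 probes (0.201%) and in both WT pairs for 32 (2.15%). The differences were also narrower in PAR1-/- bladders, with SDs over the probes of 0.55 after LPS and 0.48 after SP, against 0.91 and 0.85 in WT bladders. The scaling divided the log2 values of each array by its regression slope, and a slope under 1 spreads them. Slopes at 24 h were 1.125 and 1.083 in PAR1-/- bladders and 0.793 and 0.763 in WT bladders, and at 4 h between 0.953 and 1.112. The part of these slopes and of the dim WT arrays at 24 h in the contrasts was not tested.
Of the 117 probes that were over 2-fold lower in both WT pairs, 72 hold the value 15 on the WT LPS array at 24 h. In the PAR1-/- pairs the same 117 had median log2 differences of 0 and 0.09. Over the 624 probes that lie above 15 on that array, r between the WT pairs was 0.534, and between the PAR1-/- pairs -0.0725.

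**Figure D3:**
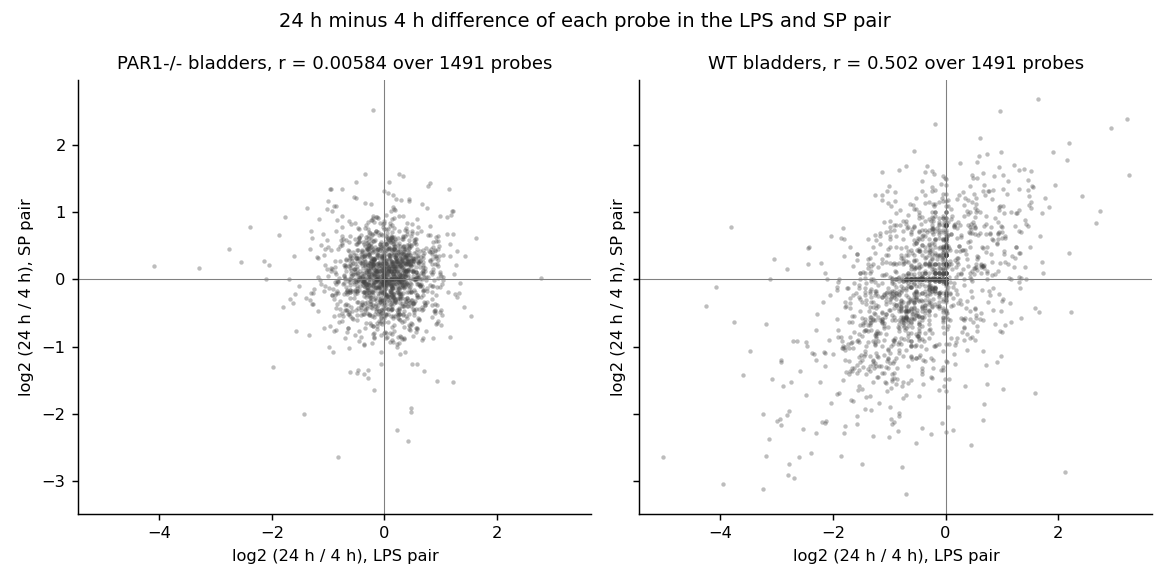
The log2 difference of 24 h minus 4 h of each of the 1491 probes in the LPS pair (x axis) and in the SP pair (y axis), for PAR1-/- bladders (left) and WT bladders (right). The PAR1-/- cloud is round (r = 0.00584), and the WT cloud lies along the diagonal (r = 0.502).

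Whether the time difference itself differed between genotypes was tested with limma on the 4 differences within pairs, with genotype and stimulus as factors. For 16 of the 1491 probes (1.07%) the adjusted p was under 0.05, and for all 16 the difference of 24 h minus 4 h was more positive in PAR1-/- bladders than in WT bladders. At an unadjusted p under 0.05 there were 215 probes with a more positive difference in PAR1-/- bladders (14.4%) and 67 with a more negative one (4.49%). Over all 1491 probes the median difference between genotypes was 0.28, so the probes as a whole were shifted to the positive side. The counts by direction are to be read against that shift. Of the 16 probes, 15 are named.
Acin1, a protein of apoptotic chromatin condensation and splicing, had the smallest p. Its intensities in PAR1-/- bladders were 128 after LPS and 78 after SP at 24 h, against 53 and 73 at 4 h. In WT bladders they were 15 and 14 at 24 h, against 181 and 431 at 4 h. The log2 difference of time was 1.07 in PAR1-/- bladders and -3.18 in WT bladders, a difference of 4.24 between genotypes (adjusted p = 0.0167, limma).
Stap1, an adaptor of tyrosine kinase signalling, had 58 and 60 at 24 h, against 48 and 47 at 4 h in PAR1-/- bladders, and 34 and 10 at 24 h, against 248 and 165 at 4 h in WT bladders. The genotype difference was 3.28 (adjusted p = 0.0423). Thumpd3, a tRNA methyltransferase, differed by 3.24 and Grb7, an adaptor of receptor tyrosine kinases, by 3.04, both at the same adjusted p.
The other 11 named genes are Elk4, Sag, Sirpa, Epx, Mov10, Pcmt1, Rpl30, Ccn1, Ap3s2, Slc11a2 and Laptm4a (outside the naming rule in this test and chosen after their values were seen), with genotype differences between 2.55 and 3.35. Elk4, an ETS factor that works with SRF at immediate early promoters, had 75 and 51 at 24 h, against 111 and 140 at 4 h in PAR1-/- bladders. In WT bladders it had 15 and 12 at 24 h, against 587 and 249 at 4 h. Ccn1, a matricellular protein induced within an hour by growth factors, had 54 and 91 at 24 h, against 68 and 104 at 4 h in PAR1-/- bladders, and 35 and 19 at 24 h, against 230 and 287 at 4 h in WT bladders. Sirpa, an inhibitory receptor of myeloid cells, had 91 and 113 at 24 h, against 108 and 133 at 4 h in PAR1-/- bladders, and 15 and 14 at 24 h, against 168 and 242 at 4 h in WT bladders. Epx, the peroxidase of eosinophils, had 105 and 58 at 24 h, against 75 and 145 at 4 h in PAR1-/- bladders, and 15 and 16 at 24 h, against 174 and 358 at 4 h in WT bladders.
Over the 16 probes the intensities at 24 h ran from 28 to 256 in PAR1-/- bladders and from 10 to 48 in WT bladders, while the saline arrays read 8 to 30 in PAR1-/- bladders and 8 to 23 in WT bladders. At 4 h they ran from 16 to 555 in PAR1-/- bladders and from 74 to 587 in WT bladders. The WT values at 24 h were thus near those of saline, and 11 of the 16 hold the value 15 on the WT LPS array at 24 h. The count of 16 rests on the scaling and the model: without normalization 0 probes passed, with quantile normalization 1, and with genotype as the only factor over all 4 pairs 1. With 3 pairs the model with both factors could not be fitted, and with genotype as the only factor 0 probes passed without any 1 pair. The direction of all 16 was the same in each of these fits. The 16 were chosen on these same pairs, and for each both WT differences lay below both PAR1-/- differences. With a pair or the stimulus factor left out, the direction was thus fixed in advance. The dim WT arrays at 24 h and the genotype cannot be told apart.

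**Figure D4:**
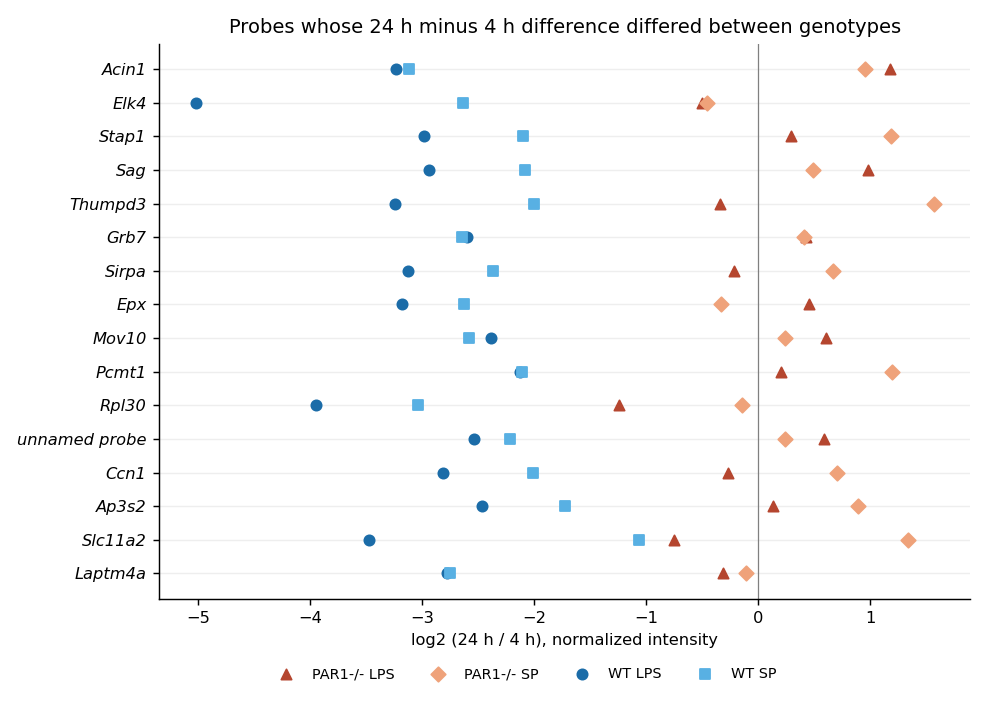
Log2 difference of 24 h minus 4 h (x axis) in each of the 4 pairs for the 16 probes past the adjusted p for the difference between genotypes, sorted by that difference. The PAR1-/- points lie between -1.25 and 1.57 and the WT points between -5.02 and -1.07.

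The same test between stimuli found 0 of 1491 probes (0%) past the adjusted p. At an unadjusted p under 0.05 it had 25 probes with a more positive difference after LPS (1.68%) and 42 with a more negative one (2.82%). The median of this difference (LPS minus SP) over all 1491 probes was -0.18. The smallest adjusted p was 0.164, of Cdkn2c, an inhibitor of cyclin-dependent kinases. Its intensities were 183 and 79 at 24 h, against 131 and 71 at 4 h after LPS (PAR1-/- first), and 7 and 6 at 24 h, against 273 and 217 at 4 h after SP. The log2 difference of time was 0.43 after LPS and -2.43 after SP. It was thus under background at 24 h after SP in both genotypes and bright on the other 6 arrays. The values 7 and 6 were the lowest on their arrays, while saline read 51 in PAR1-/- bladders and 34 in WT bladders. Whether such lowest values are readings of the spot was not tested.

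Gene lists of the inflammatory response and of the bladder wall were described by their counts and medians. None of their members passed the adjusted p, so every list has 0 calls, and the medians are to be read against -0.09 over all probes tested. The counts higher and lower are to be read against 588 higher and 903 lower of the 1491 probes tested. Of 70 named differences, 33 moved by over 1.5 times when 1 pair was left out, 23 of them without the WT LPS pair. Without that pair Egr3 was at -0.56, Ccn1 at -0.53, F2 at -0.46, Tac2 at -0.30, Ly96 at -0.06, Npas2 at 0.26, Ccne2 at -0.999 and Psma7 at -0.76.
Among immediate early genes, which are switched on without new protein synthesis, 6 of 18 recovered probes were tested, 2 higher and 4 lower, with a median of -0.17. Egr3, a zinc finger factor of the Egr family, had 52, 62, 15 and 21 at 24 h, against 56, 133, 163 and 220 at 4 h, a log2 difference of -1.19 ± 0.50 (SE). Nearly all of that difference lay in the WT pairs, with -0.06 and -0.13 in PAR1-/- bladders and -3.08 and -1.48 in WT bladders. Ccn1 differed by -1.10 ± 0.55 over the 4 pairs. Egr1 was too dim to test, with 15, 21, 15 and 14 at 24 h, against 17, 24, 18 and 23 at 4 h. For Fos no intensity was recovered. Its deposited standard scores, which are not scaled between arrays, were 0.361, 0.238, -0.454 and -0.77 at 24 h, against 0.386, 0.739, 0.884 and 1.52 at 4 h, lower at 24 h in all 4 pairs.
Of the NF-kB pathway and its targets 8 of 27 probes were tested (3 higher, 5 lower, median -0.07). Irf1, an interferon regulatory factor, had 34, 51, 55 and 19 at 24 h, against 34, 62, 134 and 250 at 4 h, and Myd88, the adaptor of Toll-like receptors, had 140, 195, 88 and 19 at 24 h, against 135, 326, 129 and 357 at 4 h. Their log2 differences were -0.58 ± 0.41 for Irf1 and -0.57 ± 0.43 for Myd88, neither past the test. Without the WT SP pair they were -0.17 for Irf1 and -0.0009 for Myd88.
Of 40 chemokine and chemokine receptor probes 12 were tested (4 higher, 8 lower, median -0.20). Ccl7, which attracts monocytes, had 26, 31, 56 and 27 at 24 h, against 34, 29, 24 and 23 at 4 h, a difference of 0.77 ± 0.35 with mixed signs. Ackr1, a receptor that binds chemokines without signalling, was higher in all 4 pairs at 0.49 ± 0.27. Among interleukins and their receptors 9 of 44 were tested (3 higher, 6 lower, median -0.13), with the interleukin 5 receptor subunit Il5ra at -0.64 ± 0.29. Of the interferon and antigen presentation list 10 of 35 were tested (4 higher, 6 lower, median -0.14), with Eif2ak2, the kinase that senses double-stranded RNA, at -0.60 ± 0.31.
Complement and coagulation genes had 8 of 26 probes tested (5 higher, 3 lower, median 0.04). F3, the tissue factor that starts coagulation, had 289, 218, 157 and 76 at 24 h, against 157, 476, 95 and 214 at 4 h, a scaled difference of 0.72 ± 0.29. F2, prothrombin, whose product thrombin cleaves PAR1, had 91, 101, 15 and 34 at 24 h, against 118, 177, 146 and 356 at 4 h, a difference of -1.07 ± 0.48.
Of the receptors of the stimuli themselves few could be read. F2rl2 and F2rl3, the PAR3 and PAR4 genes, had at most 20 at 24 h and 30 at 4 h and were not tested. Tacr1 had 11, 11, 15 and 7 at 24 h, against 9, 10, 14 and 70 at 4 h. Tac2, the gene of neurokinin B, had 247, 175, 66 and 33 at 24 h, against 204, 448, 224 and 249 at 4 h, a difference of -0.63 ± 0.33, and Ly96, the partner of Tlr4 in LPS binding, differed by -0.35 ± 0.35.
The growth factors of wound repair and angiogenesis had the lowest median of the lists with 5 or more probes tested, -0.41, with 1 of 12 tested probes higher and 11 lower. At an unadjusted p under 0.05 there were 2 of the 12, against 5.9% of all probes tested. Fgfr2, a fibroblast growth factor receptor of epithelia, had 35, 32, 15 and 28 at 24 h, against 48, 129, 62 and 163 at 4 h, a difference of -0.87 ± 0.28. Fgf7, its ligand from the stroma, had 19, 25, 15 and 12 at 24 h, against 39, 61, 41 and 42 at 4 h, a difference of -0.61 ± 0.25. The list medians of the pairs were -0.31 after LPS and 0.17 after SP in PAR1-/- bladders and -1.24 and -0.47 in WT bladders.
Cell cycle and DNA replication genes had 14 of 52 probes tested (5 higher, 9 lower, median -0.26). Ccne2, a cyclin of the entry into DNA synthesis, had 58, 43, 15 and 17 at 24 h, against 101, 161, 228 and 155 at 4 h, a difference of -1.65 ± 0.47 with no overlap of the times. Top2a, the topoisomerase of dividing cells, had 26, 33, 15 and 17 at 24 h, against 52, 84, 45 and 85 at 4 h, a difference of -0.75 ± 0.24.
Ribosomal proteins and translation factors had 16 of 39 tested (7 higher, 9 lower, median -0.18) and held members at both ends. Rpl30, a protein of the large subunit, had 42, 46, 15 and 14 at 24 h, against 111, 99, 290 and 406 at 4 h, a difference of -2.10 ± 0.58. Rpsa, a protein of the small subunit, had 84, 92, 53 and 13 at 24 h, against 48, 62, 25 and 36 at 4 h, a scaled difference of 0.85 ± 0.30.

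**Figure D5:**
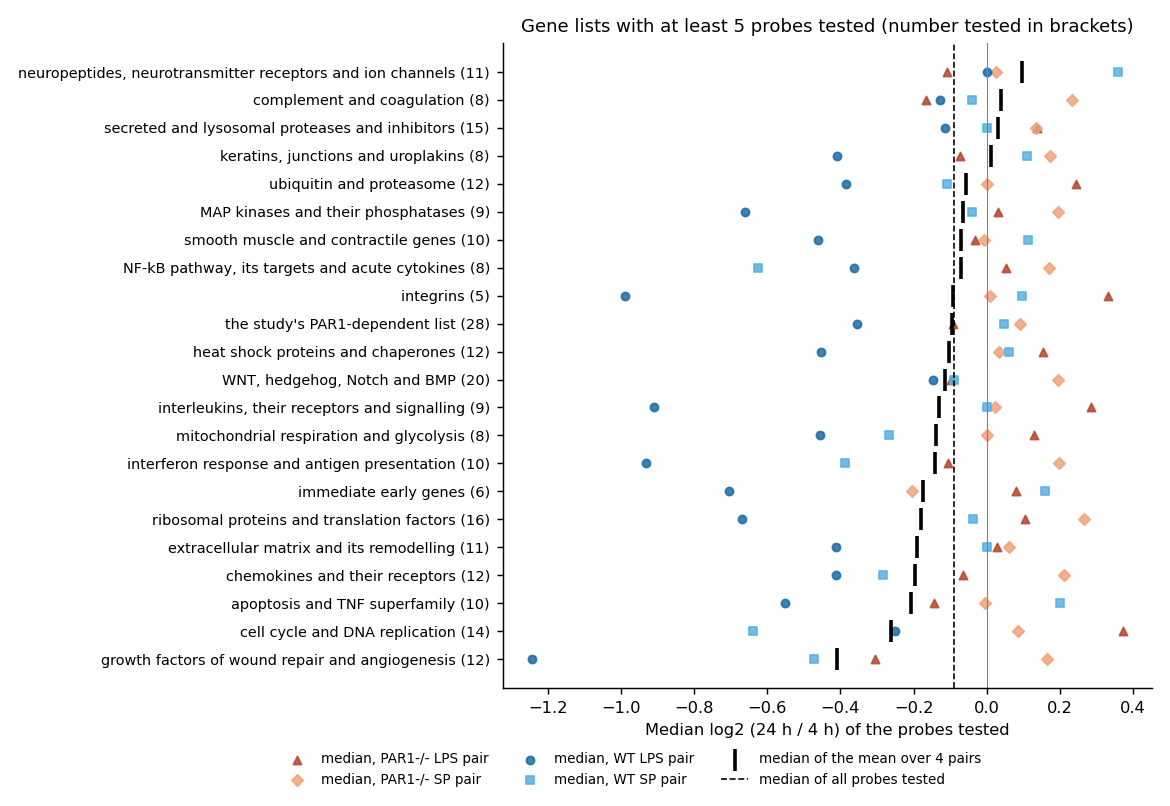
Median log2 difference of 24 h minus 4 h over the tested probes of each list with at least 5 of them, as the median of the 4-pair means (black bar) and the median in each pair (points). The dashed line is the median of all probes tested, -0.09, and growth factors had the lowest median, -0.41.

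In the structural lists, smooth muscle and contractile genes had 10 of 23 tested (4 higher, 6 lower, median -0.07), with Vcl, vinculin, at -0.62 ± 0.27. Acta2 and Myh11 went opposite ways, at 0.91 ± 0.46 and -0.73 ± 0.32. Keratins, junctions and uroplakins had 8 of 23 tested (4 higher, 4 lower, median 0.01), with Krt6a, a keratin of activated epithelium, at -0.65 ± 0.27 and the tight junction protein Cldn3 at 0.39 ± 0.24. Extracellular matrix genes had 11 of 42 tested (2 higher, 9 lower, median -0.19) and integrins 5 of 15 (1 higher, 4 lower, median -0.09).
Chaperones had 12 of 21 tested (4 higher, 8 lower, median -0.10), with the Hsp70 partner Dnaja1 at 0.92 ± 0.32. Ubiquitin and proteasome genes had 12 of 36 tested (4 higher, 8 lower, median -0.06). At an unadjusted p under 0.05 there were 3 of the 12, against 5.9% of all probes tested. These 3 were the proteasome subunit Psma7 at -1.29 ± 0.48, the deubiquitinase Usp2 at 0.99 ± 0.40, and Skp2. Apoptosis and TNF superfamily genes had 10 of 41 tested (3 higher, 7 lower, median -0.21), with the death-promoting Bok at -0.77 ± 0.26 and Cflar, an inhibitor of caspase 8, at -0.92 ± 0.33. The list of WNT, hedgehog, Notch and BMP genes had 20 of 71 tested (9 higher, 11 lower, median -0.11).
Clock genes were few, with 4 of 13 tested (2 higher, 2 lower, median -0.04). Npas2, a clock activator, differed by 0.49 ± 0.29. Arntl, Dbp and Per2 were above background on 0 of the 4 arrays of 24 h and on 1, 1 and 2 of the 4 arrays of 4 h. Per1 had 31, 26, 15 and 9 at 24 h, against 17, 29, 18 and 21 at 4 h. The clock time at which bladders were taken is not given in the sources used.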

How the data were processed

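Bladders of WT and PAR1-/- mice were pooled (8 per group), and 33P-labelled cDNA was hybridised to Clontech Atlas mouse plastic 5 K arrays whose spots the authors quantified with AtlasImage. The deposited values are scores: the log2 of each value has mean 0 and the same SD over the 10 arrays of a probe. A search over whole numbers up to 3000 found the intensities behind the 10 scores of a probe, kept where fewer than 0.01 chance matches were expected, for 4968 of 5030 probes. Of 2000 simulated probes 99.65% were recovered. The 62 others were left out. Intensities were scaled by robust regression (rlm, MASS 7.3.60.0.1), as in the authors' methods, against the 8-array mean, with the 558 probes that exceeded background on every array. Tests used limma 3.58.1 (R 4.3.3) with the pair as a block, and fold changes are on the log2 scale with values raised to the floor. In simulated data, with 200 of 1491 probes changed, 70% of log2 changes of 1 and 100% of changes of 2 were recovered for time. For differences of 2 between genotypes the share was 78%. On the arrays, Abcb10 differed by -2.247, Elk4 by -2.155 and Rpl30 by -2.095 between the times. Their adjusted p was 0.216, 0.741 and 0.741 (limma), so none of them passed. The simulated noise used SDs that limma had already drawn towards a common value, and the 200 changed probes eased the adjustment of p. The shares recovered may thus be too high for the measured arrays, which was not tested.
Genotype was taken from the series' design text, stimulus, dose and time from the treatment text of each sample. The pools and pairs are no repeats of 1 condition, so p-values measure the spread over pairs, and the number of arrays limits the precision. Genes named were, for each direction, the 8 of smallest p with 1 sign in all pairs, the first members of each of 34 lists by p, 4 per difference test, and the PAR, Fos, Egr1 and clock genes. The members, lists and tests were chosen with earlier results of these data known. Names come from the platform annotation (4633 probes with 1 gene, 5 with several, 392 with none), of which 4624 matched RefSeq. Alternatives changed the normalization, floor, background, filter, block, prior, pairs and arrays used.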

Additional observations from a re-analysis of the deposited data

Results flagged for a closer look

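Of the 75 groups of 4 values checked, most held pair differences and some held totals or detection counts of single arrays. In 7 of them 1 pair stood far from the other 3. Chance gives this in about 1 in 20 groups of independent normal values. The pairs here differ in genotype and stimulus, and some genes were chosen for a small p with 1 sign in all pairs, so that rate need not hold. The median log2 difference over the probes tested was -0.38 in the WT LPS pair, against -0.01 to 0.06 in the other pairs. Dapk3 was at 1.25 in the WT LPS pair, against 0.49 to 0.54 in the others, and Bok at -1.42 in that pair, against -0.59 to -0.47. In the PAR1-/- SP pair Dvl3 was at -0.36, against -1.41 to -1.28 in the others, Snai1 at 0.11, against 0.72 to 0.83, and Htr2c, a serotonin receptor, at -1.08, against -0.18 to -0.07. Ackr1 was at 1.25 in the WT SP pair, against 0.18 to 0.31.
For 16 probes the time difference differed between genotypes by limma's test of that difference. The size, PAR1-/- minus WT on the log2 scale, was 4.24 for Acin1, 3.35 for Elk4, 3.28 for Stap1, 3.25 for Sag, 3.24 for Thumpd3, 3.04 for Grb7 and 2.97 for Sirpa. It was 2.96 for Epx, 2.91 for Mov10, 2.82 for Pcmt1, 2.80 for Rpl30, 2.79 for a probe with no gene name, 2.63 for Ccn1, 2.61 for Ap3s2, 2.57 for Slc11a2 and 2.55 for Laptm4a.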

How the results depend on the processing

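The counts for time depended on the floor, the filter and the prior. Past the adjusted p there were 7 probes lower and 1 higher with each array's own floor, 6 lower with no floor, 6 lower and 1 higher with limma's trend and robust prior, 2 lower with no filter and no floor, and 1 lower with a shift per array or with the filter on all 8 arrays. The fit with no replicate block gave 0 in each direction, as did each fit without 1 pair. Pairs are matched on their labels for genotype and stimulus, not on a shared animal or batch.
The median difference was -0.62 without normalization and -0.30 with equal medians, and between -0.14 and 0.01 with 1 pair left out, the highest without the WT LPS pair. Probes higher in all 4 pairs numbered 0 without normalization, 3 with equal medians, 331 with no filter and no floor (against 158 lower there, with a median of 0.12) and 4 on the deposited scores. Probes lower in all 4 pairs numbered 441 without normalization, 62 with a shift per array, 381 with equal medians and 1134 on the deposited scores. They numbered 71 with the background spread taken strictly below the mode. With the filter on all 8 arrays they numbered 33, against 39 higher there.
Between genotypes 0 probes passed without normalization, 1 with quantile normalization, 57 with no floor, 73 with each array's own floor, 35 with the filter on all 8 arrays, 45 with the strict background spread, 1 with genotype alone as factor, 10 with the trend and robust prior and, with genotype alone as factor again, 0 without any 1 pair. The last 4 of these settings were added after seeing the data. Between stimuli 10 passed with no floor, 4 with each array's own floor and 1 with the filter on all 8 arrays. With stimulus alone as factor, also added after seeing the data, 0 passed over the 4 pairs and 0 without any 1 pair. Probes detected on all arrays of 4 h and none of 24 h numbered between 20 and 63 with 1 pair left out, and those of the opposite pattern between 0 and 2, a count added after seeing the data as well.
Of the named genes some with small differences changed sign. Other scalings move the median of all probes, so their values are given relative to that shift and then, in brackets, as measured. Without normalization Krt19 was at 0.187 (-0.34), Itgb2 at 0.243 (-0.28) and Cpa3 at -0.241 (-0.77). With equal medians they were at 0.027 (-0.18), 0.089 (-0.12) and -0.138 (-0.35), so Krt19 and Itgb2, at -0.01 and -0.07 in the report's setting, changed sign relative to the other probes and not as measured. On the scores Hsd11b1 was at -0.059 (-0.24) and Cpa3 at -0.061 (-0.24). With no floor, with or without the filter, Hsd11b1 was at -0.082 with no such shift. With 1 pair left out Nfil3 ran between -0.382 and 0.0074, Itgb1 between -0.473 and 0.150, Krt19 between -0.195 and 0.159, Csf1r between -0.265 and 0.0127 and Itgb2 between -0.201 and 0.047, and with all 10 arrays Krt19 was at 0.0078. The cause was not tested. The low signal over background of both WT arrays at 24 h limits all of these values.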

Other observations

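For 62 probes no intensities were recovered, and their deposited standard scores, which are not scaled between arrays, stand outside the comparisons above. Of these, 26 were lower at 24 h in all 4 pairs (41.9%) and 0 were higher. Over all 5030 probes the scores were lower in all 4 pairs for 1134 (22.5%) and higher for 4.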
